A study of Mus musculus with 6 samples.

Results

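The 42 genes described here build and drive mitosis in mouse cells. They are CDK1 and its cyclins, the mitotic kinases, the spindle checkpoint, the centromere and kinetochore, the kinesins and the proteins of spindle assembly and cytokinesis, and they were taken as a named list of G2/M genes by matching Ensembl identifiers to symbols. All 42 were found among the 25700 gene identifiers of the count tables, and all 42 passed the filter on low counts that left 12433 genes for testing. With heme, 39 of the 42 were lower than in control macrophages, none was higher, and 3 did not pass the test (*Mybl2*, *Bub3* and *Pttg1*). Of all tested genes, 30.8% were lower and 31.7% higher.

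The data came from bulk RNA-Seq of bone marrow-derived macrophages (BMDMs), which are macrophages grown in culture from marrow cells with the growth factor M-CSF. Marrow of C57BL/6J mice aged 8 to 10 weeks was cultured with 100 ng/ml M-CSF, and the cells were harvested on day 7. From day 3, the 3 heme cultures held 300 μM heme-albumin, which is heme carried on albumin, and the 3 control cultures held albumin. Both groups therefore shared strain, growth factor and albumin, and differed by the heme that was present while the marrow cells were still turning into macrophages.

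The libraries were stranded, and by the study's methods each came from the cells of 1 mouse. Whether a replicate number marks the same mouse in both groups is not stated. The libraries held 27201038 to 32994595 counts, and a member had 34 to 9673 counts in a library.

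A cell enters mitosis when CDK1, bound to a cyclin A or B, is switched on by phosphatases of the CDC25 family. Aurora and Polo kinases then act on chromosomes and spindle, kinetochores tie chromosomes to microtubules, and the spindle checkpoint holds back the anaphase-promoting complex until every chromosome is attached. Most of these genes are transcribed in a burst late in the cell cycle and are nearly silent in resting cells, so they serve as a readout of cycling cells. Their promoters often carry a short element near the start of transcription, the cell cycle genes homology region (CHR), to which the DREAM and MuvB complexes bind, and upstream CCAAT boxes, to which NF-Y binds. M-CSF is both a survival factor and a growth factor for macrophages, and BMDM cultures hold dividing cells.

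Promoters are shown here for the 3 members with the largest falls and for *Bub3* and *Mybl2*, which did not pass the test. Each line gives 150 bases on the strand of the gene, 120 before the RefSeq start and 30 from it, on GRCm38.p6, and capitals mark the CHR (TTTGAA), its variant (TTCGAA) and the CCAAT box, each on either strand.
Ccnb2: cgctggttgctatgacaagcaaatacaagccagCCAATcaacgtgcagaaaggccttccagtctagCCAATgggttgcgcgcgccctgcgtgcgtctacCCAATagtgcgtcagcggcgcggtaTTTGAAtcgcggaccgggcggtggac
Cenpa: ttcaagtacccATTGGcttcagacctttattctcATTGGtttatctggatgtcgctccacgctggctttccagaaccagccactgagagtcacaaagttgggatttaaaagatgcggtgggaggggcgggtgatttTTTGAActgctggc
Cdc25b: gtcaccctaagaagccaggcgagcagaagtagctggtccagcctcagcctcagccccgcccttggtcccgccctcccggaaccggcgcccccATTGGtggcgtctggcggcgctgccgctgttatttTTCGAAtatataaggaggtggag
Bub3: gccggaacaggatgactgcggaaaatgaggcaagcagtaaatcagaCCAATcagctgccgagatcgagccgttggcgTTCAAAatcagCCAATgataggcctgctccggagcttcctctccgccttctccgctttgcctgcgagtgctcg
Mybl2: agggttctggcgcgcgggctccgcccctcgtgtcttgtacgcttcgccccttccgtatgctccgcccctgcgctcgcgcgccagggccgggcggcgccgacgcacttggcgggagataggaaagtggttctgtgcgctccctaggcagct
The windows lie at chr9:70421525-70421674 on the minus strand (*Ccnb2*), and on the plus strand at chr5:30666766-30666915 (*Cenpa*), chr2:131186828-131186977 (*Cdc25b*), chr7:131560250-131560399 (*Bub3*) and chr2:163054515-163054664 (*Mybl2*). The *Ccnb2* window held 3 CCAAT boxes followed by a CHR that began at base 5 of the transcript. *Cenpa* had 2 CCAAT boxes on the opposite strand and a CHR at base 17, and *Cdc25b* had 1 CCAAT box on the opposite strand and the variant at base 8. *Bub3* also had 2 CCAAT boxes and a CHR between them, on the opposite strand, whereas *Mybl2* had none of the 3 elements in these letters. Relative to the 5′ end of the GENCODE gene, the RefSeq start lay at 148 bases for *Bub3*, 109 for *Cenpa* and -52 for *Mybl2*. It lay at -7 for *Ccnb2* and -1 for *Cdc25b*. The windows shown for *Bub3* and *Mybl2* leave out the GENCODE 5′ end and may therefore miss the main start, whereas the *Cenpa* window contains the GENCODE 5′ end.

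Members were compared between heme and control with edgeR's quasi-likelihood test, fitted over all 12433 tested genes with Benjamini-Hochberg adjustment and a threshold of 0.05. Levels are given as CPM, the counts of a gene per 1000000 counts of its library after TMM scaling. Over all tested genes, 7769 (62.5%) passed, 3831 (30.8%) lower and 3938 (31.7%) higher with heme, and the median log2 fold change over all tested genes was 0.00. With libraries scaled by their totals alone, the calls over all genes were 5814 lower and 2580 higher, the median over all tested genes was -0.22, and all 42 members were lower, with a median of -1.90. Against the shares with TMM, 39 of the 42 members (92.9%) were lower and 0 higher. The members' median log2 fold change was -1.68, with a range of -2.31 to -0.01. A fall that passed the test and was at least 1 on the log2 scale was seen in 38 members, and in 8.42% of all tested genes. In 40 members every heme library lay below every control library, as it did for 34.0% of all tested genes.

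The 39 members that fell kept 20.2% to 51.3% of their mean control level in the heme libraries, with a median of 31.0%. Together the 42 members took 0.273%, 0.211% and 0.242% of all counts in the 3 control libraries and 0.0634%, 0.0822% and 0.0728% in the 3 heme libraries, so that the mean share with heme was 30.1% of that in the control group (0.242% ± 0.0312 against 0.0728% ± 0.0094, SD, n = 3 each). These shares were of library totals without TMM scaling, whereas the levels kept by the 39 members were TMM-scaled. The 30.1% and the median of 31.0% are therefore on different scales. With scaling by totals alone, the median change over all tested genes was itself -0.22 rather than 0.00. The shares of the groups did not overlap, and 3 libraries against 3 cannot give an exact permutation p below 0.1. In bulk RNA, fewer cycling cells and less of these transcripts per cell cannot be told apart.

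**Figure D1:**
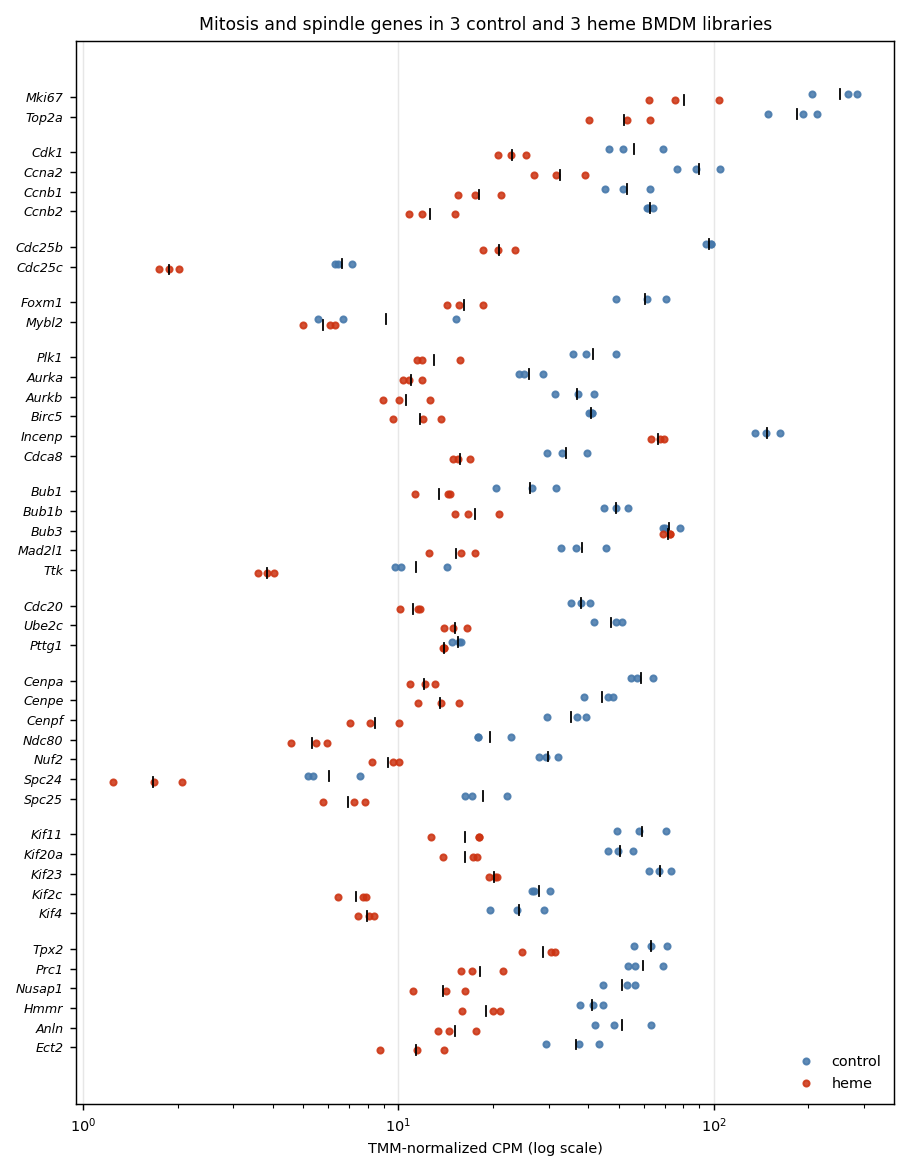
Level of each of the 42 mitosis and spindle genes in each library, in TMM-scaled CPM on a log axis, with control and heme libraries as separate symbols. In 40 of the 42 genes all 3 heme libraries lie below all 3 control libraries, as in 34.0% of all tested genes, the exceptions being *Mybl2* and *Bub3*.

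Both genes of the list that are widely used to mark dividing cells fell. *Mki67*, which encodes the proliferation antigen Ki-67 (chromosome 7, 135689784 to 135716361), stood at 267, 205 and 286 CPM in the control libraries and at 62.6, 104 and 75.2 CPM in the heme libraries. *Top2a*, the topoisomerase that untangles sister DNA, stood at 212, 148 and 192 CPM in control and at 40.3, 62.7 and 53.3 CPM with heme. Neither gene's groups overlapped, and heme replicate 2 was the highest heme library for each. The log2 fold changes were -1.65 (SE 0.18, edgeR adjusted p = 3.95e-05) for *Mki67* and -1.82 (SE 0.17, adjusted p = 1.26e-05) for *Top2a*.

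Cyclin B2 showed the largest fall of all members. *Ccnb2* (chromosome 9, 70407692 to 70421547), a mitotic partner of CDK1, measured 61.5, 62.2 and 64.4 CPM in control and 10.8, 15.2 and 11.9 CPM with heme. It kept 20.2% of its control level, a log2 fold change of -2.31 (SE 0.11, edgeR adjusted p = 1.78e-07), and its lowest control library was 4.05 times its highest heme library. *Ccnb1*, the other B-type cyclin listed, went from 62.7, 45.3 and 51.7 CPM to 15.4, 21.3 and 17.6 CPM (log2 fold change -1.56, SE 0.14). *Ccna2*, which binds CDK2 in S phase and CDK1 in G2, went from 105, 76.3 and 87.9 CPM to 26.9, 39.2 and 31.6 CPM (log2 fold change -1.46, SE 0.15). The smallest fall of these 4 was that of the kinase gene itself. *Cdk1* measured 69.2, 46.6 and 51.7 CPM in control and 20.7, 25.4 and 22.8 CPM with heme, a log2 fold change of -1.28 (SE 0.14, adjusted p = 4.31e-05).

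Per kilobase of exon, *Ccnb2* also had the highest control level of the 42, at 40.9 CPM per kb, and with heme it stood at 8.25 CPM per kb. The lowest control level per kilobase was that of *Cdc25c*, at 1.35 CPM per kb. Exon length here is the union of all annotated exons of a gene, which overstates the length of a gene with many isoforms and lowers its value per kilobase.

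The phosphatases that remove the inhibitory phosphates from CDK1 both fell. *Cdc25b* (chromosome 2, 131186949 to 131198497) measured 98.0, 94.4 and 98.0 CPM in control and 20.7, 23.4 and 18.6 CPM with heme, the smallest adjusted p of all members (log2 fold change -2.21, SE 0.09, edgeR adjusted p = 5.42e-08). *Cdc25c* measured 7.16, 6.30 and 6.45 CPM in control and 2.02, 1.74 and 1.87 CPM with heme (log2 fold change -1.82, SE 0.14).

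The pair of transcription factors in the list, which take turns on the MuvB complex at G2/M promoters, had unlike values. *Foxm1* (chromosome 6, 128362967 to 128376146) measured 70.5, 49.1 and 61.7 CPM in control and 14.2, 18.6 and 15.6 CPM with heme, a log2 fold change of -1.91 (SE 0.14, edgeR adjusted p = 2.84e-06). *Mybl2*, which encodes B-Myb (chromosome 2, 163054687 to 163084688), measured 15.3, 5.55 and 6.70 CPM in control and 4.98, 6.32 and 6.05 CPM with heme. Control replicate 1 stood far above the other 5 libraries, which overlapped between the groups. The log2 fold change was -0.67 with the widest error of any member (SE 0.34, adjusted p = 0.11). Without control replicate 1 it was -0.09 (adjusted p = 0.618), and without control replicate 2 it was -0.94 and passed the test (adjusted p = 0.0165).

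All 6 mitotic kinases and chromosomal passenger proteins fell. The Polo kinase gene *Plk1* measured 48.96, 35.8 and 39.3 CPM in control and 11.9, 15.7 and 11.4 CPM with heme (log2 fold change -1.67, SE 0.15, edgeR adjusted p = 8.94e-06). *Aurka*, the Aurora kinase of spindle poles, measured 28.7, 24.1 and 25.0 CPM in control and 10.8, 11.9 and 10.3 CPM with heme (log2 fold change -1.24, SE 0.10).

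The chromosomal passenger complex joins the kinase Aurora B (*Aurkb*) to survivin (*Birc5*), borealin (*Cdca8*) and the scaffold INCENP (*Incenp*). *Aurkb* fell from 41.9, 31.4 and 37.2 CPM to 8.92, 12.6 and 10.1 CPM. *Birc5* fell from 41.3, 41.1 and 40.4 CPM to 9.60, 13.6 and 12.0 CPM. The log2 fold changes of these members were -1.81 (SE 0.14) and -1.80 (SE 0.11), whereas those of the other subunits were smaller, -1.15 (SE 0.08) for *Incenp* and -1.12 (SE 0.11) for *Cdca8*. *Incenp* was the most abundant subunit per kilobase, at 34.2 CPM per kb in control and 15.4 CPM per kb with heme, against 12.5 and 3.58 CPM per kb for *Aurkb*. The difference in change between subunits was not tested.

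The spindle checkpoint genes did not all move. *Bub1b* (BubR1, a subunit of the mitotic checkpoint complex), *Mad2l1* (MAD2, which binds CDC20), *Ttk* (the kinase MPS1) and *Bub1* (a kinase of unattached kinetochores) fell, with log2 fold changes of -1.49, -1.33, -1.58 and -0.97. *Bub1* was the only one of the 39 called members that fell by less than 1 on the log2 scale, from 31.7, 20.4 and 26.5 CPM in control to 11.3, 14.3 and 14.6 CPM with heme (SE 0.16, edgeR adjusted p = 0.000591).

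*Bub3*, the WD40 protein that brings BUB1 and BubR1 to kinetochores (chromosome 7, 131560222 to 131571895), measured 78.1, 69.0 and 69.9 CPM in control and 72.8, 69.2 and 72.8 CPM with heme. The 6 libraries overlapped, and the mean with heme was 99.0% of the control mean (log2 fold change -0.01, SE 0.07, edgeR adjusted p = 0.867). Per kilobase its level was 10.3 CPM per kb in control and 10.2 CPM per kb with heme.

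Of the anaphase-promoting complex partners, the activator gene *Cdc20* measured 40.7, 35.3 and 38.0 CPM in control and 10.1, 11.6 and 11.7 CPM with heme (log2 fold change -1.77, SE 0.09, edgeR adjusted p = 2.23e-07). *Ube2c*, the ubiquitin-conjugating enzyme that works with the complex, went from 51.3, 41.7 and 49.1 CPM to 14.0, 16.5 and 14.9 CPM (log2 fold change -1.65, SE 0.10). Securin was the exception. *Pttg1* (chromosome 11, 43420250 to 43426251), which holds back separase until anaphase, measured 14.8, 15.8 and 15.6 CPM in control and 13.9, 13.9 and 13.9 CPM with heme. All heme libraries were below all control libraries, but the difference was small and did not pass the test (log2 fold change -0.15, SE 0.08, edgeR adjusted p = 0.13).

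All 7 centromere and kinetochore members fell, with a median log2 fold change of -1.87. *Cenpa*, the histone H3 variant that defines the centromere (chromosome 5, 30666777 to 30674830), measured 54.7, 64.5 and 57.1 CPM in control and 10.9, 13.04 and 12.2 CPM with heme. It had the second largest fall of the members, to 20.5% of control (log2 fold change -2.29, SE 0.09, edgeR adjusted p = 7.23e-08), and its groups were the farthest apart, the lowest control library being 4.19 times the highest heme library. *Cenpf*, a large protein of the outer kinetochore, went from 37.0, 29.7 and 39.3 CPM to 7.04, 10.1 and 8.14 CPM (log2 fold change -2.07, SE 0.15). *Cenpe*, a kinesin that moves chromosomes to the metaphase plate, had a log2 fold change of -1.71 (SE 0.12).

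The 4 subunits of the NDC80 complex, which grips microtubule ends, fell together. Their log2 fold changes were -1.88 (SE 0.14) for *Ndc80*, -1.68 (SE 0.10) for *Nuf2*, -1.87 (SE 0.22) for *Spc24* and -1.42 (SE 0.15) for *Spc25*. Per kilobase, the mean control levels of *Ndc80*, *Nuf2*, *Spc24* and *Spc25* were 3.01, 4.71, 2.35 and 5.81 CPM per kb. *Spc24* had the lowest count of any member in a library (34), at 7.57, 5.16 and 5.38 CPM in control and 1.68, 2.05 and 1.25 CPM with heme, and had the widest standard error of the 39 called members.

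The 5 kinesin motors all fell, with log2 fold changes from -1.93 to -1.60. *Kif2c* (MCAK, which takes microtubule ends apart) went from 30.4, 27.03 and 26.6 CPM to 6.43, 7.70 and 7.89 CPM. *Kif11* (Eg5, which pushes spindle poles apart) went from 70.6, 49.5 and 57.9 CPM to 12.7, 18.1 and 18.0 CPM. *Kif23* (MKLP1, of the spindle midzone) went from 73.4, 62.3 and 67.3 CPM to 19.4, 20.2 and 20.6 CPM. The log2 fold changes of *Kif2c*, *Kif11* and *Kif23* were -1.93 (SE 0.10), -1.87 (SE 0.16) and -1.75 (SE 0.08), and those of *Kif20a* (MKLP2, a cytokinesis motor) and *Kif4* (a chromosome-bound motor) were -1.63 (SE 0.11) and -1.60 (SE 0.14).

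The proteins of spindle assembly and cytokinesis all fell. *Nusap1*, a microtubule-bundling protein, had the largest fall of the 6, from 56.2, 44.7 and 53.1 CPM to 11.1, 16.3 and 14.2 CPM (log2 fold change -1.89, SE 0.14, edgeR adjusted p = 2.39e-06). *Anln* (anillin, a scaffold of the contractile ring), *Prc1* (which bundles midzone microtubules) and *Ect2* (which activates RhoA at the cleavage furrow) had log2 fold changes of -1.76, -1.72 and -1.70. The falls of *Tpx2*, the Aurora A activator, and *Hmmr*, a spindle-associated hyaluronan receptor, were the smallest of the 6, at -1.14 (SE 0.11) and -1.12 (SE 0.11).

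**Figure D2:**
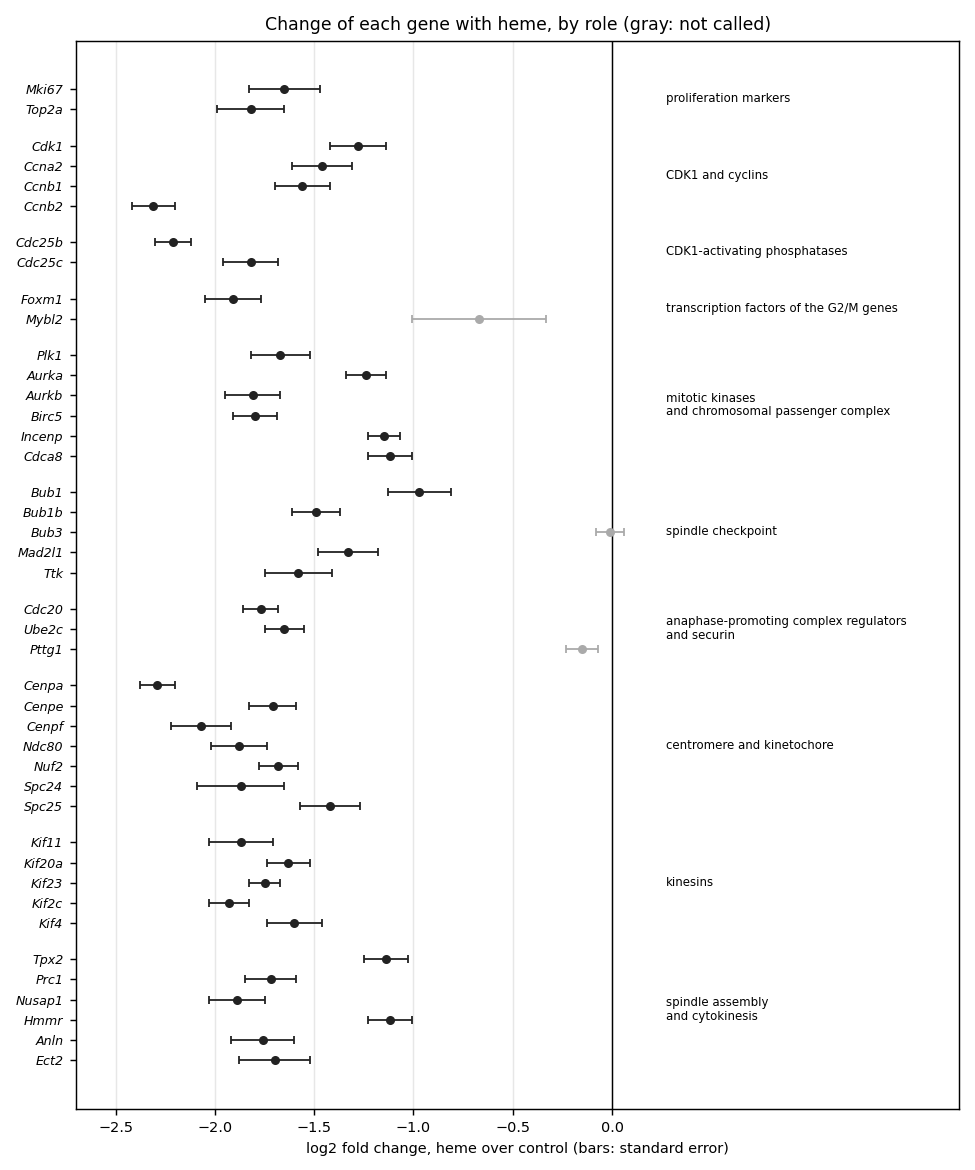
Log2 fold change of each member, heme over control, with a standard error derived from edgeR's test as bars and genes grouped by role. The 39 called genes (black) lie between -2.31 and -0.97, and *Mybl2*, *Bub3* and *Pttg1* (gray) did not pass the test.

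The libraries of a group differed in the same order across most members. Control replicate 1 was the highest control library in 37 of the 42 members and control replicate 2 the lowest in 36. Heme replicate 2 was the highest heme library in 32 members and heme replicate 1 the lowest in 35. Members therefore do not give independent views of the difference between the groups. Leaving out any single library left 39 or 40 members lower and none higher.

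The exons of 13 members overlap an exon of another annotated gene, 11 of them on the opposite strand. The longest shared stretches by share of the member's exons were those of *Kif20a* with *Cdc23* (29.3%), *Ube2c* with *Tnnc2* (22.8%) and *Kif4* with *Pdzd11* (15.1%). No source used here gives the strand setting of the counting, so reads in these stretches may have been counted for either gene or for neither.

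Promoter windows of RefSeq, 250 bases before to 50 from the start, were given for 34 of the 42 members and were searched on both strands. The CHR (TTTGAA) was found in 24 of the 34 windows (70.6%), against 11.8% of the windows of 9500 other tested genes and 18.1% of all 27025 windows. The CHR variant (TTCGAA) was found in 4 windows (11.8%, against 2.15% of the windows of other tested genes and 1.57% of all windows). At least 1 CCAAT box was found in 25 windows (73.5%, against 38.9% for other tested genes and 37.9% of all). At least 2 were found in 18 windows (52.9%, against 15.2% for other tested genes and 12.2% of all). A CHR and a CCAAT box stood in the same window in 21 members (61.8%), against 4.96% for other tested genes and 7.12% of all windows. A match is a description of the window only.

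The E2F site TTCCCGC was in none of the 34 windows, against 8.69% for other tested genes and 4.66% of all windows. The E2F site TTGGCGC was in 4 windows (11.8%), against 4.4% for other tested genes and 2.54% of all. Read on the opposite strand the CCAAT box is ATTGG, which shares the letters TTGG with the second E2F site, so a stretch can count for both. In 22 of the 34 windows (64.7%) a CHR lay within 50 bases of the start, against 2.75% of the windows of other tested genes, a distance chosen after the positions had been seen. The 24 members with a CHR had a median log2 fold change of -1.68, with 23 of them lower, and the 10 without had a median of -1.62, with 8 lower. *Bub3* was the member with a CHR that was not called. The listed starts lay within 50 bases of the 5′ end of the GENCODE gene for 25 of the 34 windows. Some of the other windows leave out that 5′ end and may miss the main start.

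**Figure D3:**
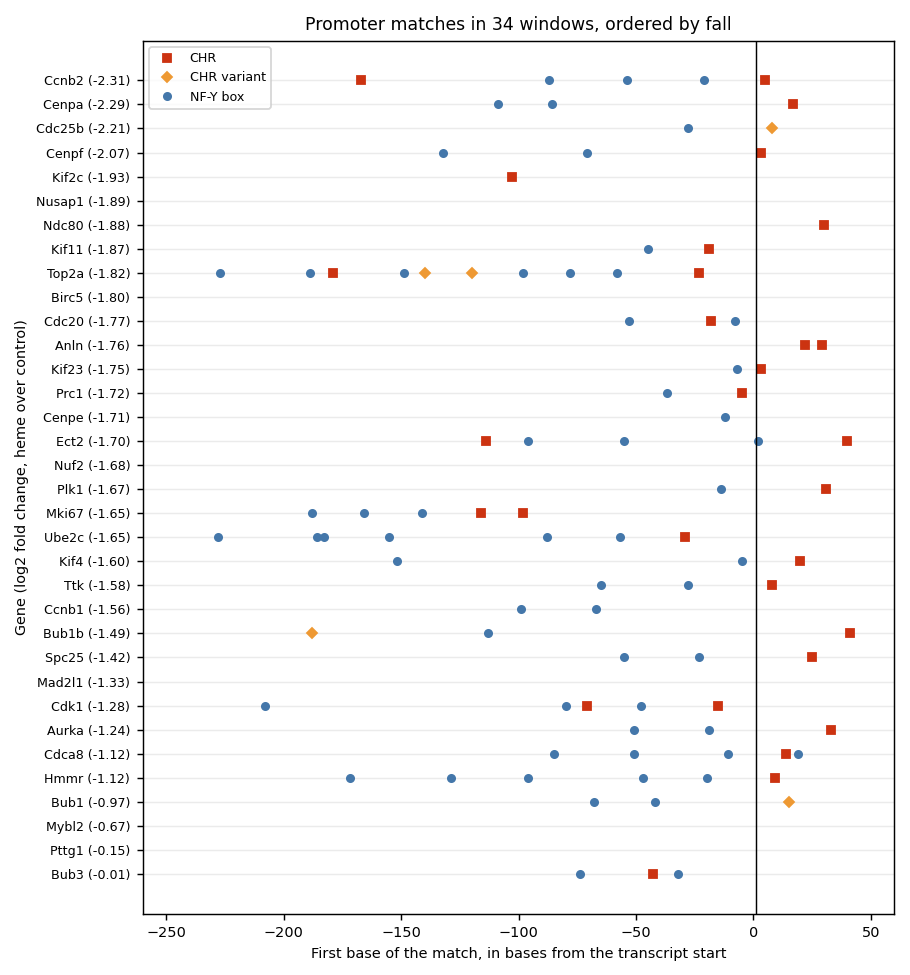
Position of each CHR, CHR variant and CCAAT box (marked as NF-Y box) in the RefSeq promoter windows of 34 members, in bases from the transcription start, with members ordered by log2 fold change. CHR matches gather near the start, with 22 of the 34 windows holding 1 within 50 bases of it, and CCAAT boxes lie mostly upstream.

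Other genes of mitosis were taken as a list of 102 with no member in it. Of these, 86 (84.3%) were lower, 3 higher and 13 not called, with a median log2 fold change of -1.24. The shares over all tested genes were 30.8% lower and 31.7% higher. All 8 condensin genes fell (median -1.26), as did all 23 further kinesin, spindle and cytokinesis genes (median -1.78), of which *Aspm*, a spindle pole protein, fell from 29.7, 26.97 and 31.9 CPM to 5.22, 6.48 and 4.95 CPM (log2 fold change -2.41, SE 0.12, edgeR adjusted p = 1.85e-07). Also large were the falls of *Cenpm*, a constitutive centromere protein (-2.52), *Iqgap3*, a scaffold protein (-2.25), *Psrc1* (-2.19), *Stmn1*, which destabilizes microtubules (-2.18), and *Ckap2* (-2.03). Of 29 further kinetochore genes, 24 fell (median -1.22), and of 12 mitotic entry kinases, CDK subunits and phosphatases, 11 fell (median -1.17).

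Cohesin and the anaphase-promoting complex had smaller median changes. Subunits of both also act outside mitosis, and whether that bears on the changes was not tested. Of 13 genes of cohesin and sister chromatid separation, 10 (76.9%, against 30.8% of all tested genes) fell. Their median was -0.78, with a range of -1.88 to 0.12. Of 17 subunits and cofactors of the anaphase-promoting complex, which also acts in G1, 10 (58.8%) fell and 1 rose (against 31.7% of all tested genes). Their median was -0.23, with a range of -1.32 to 0.33. The 3 genes of the list that rose were *Zwint*, a kinetochore protein, *Anapc4*, a subunit of the anaphase-promoting complex, and *Zw10*, which acts at kinetochores and in membrane traffic. *Zwint* stood apart, at 73.4, 65.3 and 66.8 CPM in control and 163, 147 and 165 CPM with heme (log2 fold change 1.21, SE 0.07, edgeR adjusted p = 7.45e-07). The rises of *Anapc4* (0.33) and *Zw10* (0.27) were lost when libraries were scaled by their totals alone (adjusted p = 0.239 and 0.678), and that of *Zw10* was also lost without control replicate 2, control replicate 3, heme replicate 1 or heme replicate 3.

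More of the genes that control cell cycle transcription fell than rose, whereas all tested genes were split almost evenly (30.8% lower and 31.7% higher). Of 19, 9 (47.4%) fell, 2 rose and 8 were not called, with a median of -0.24. *Mybl1* (A-Myb) and *Lin9*, a MuvB core subunit, fell by 1.56 and 1.38 on the log2 scale, and *Lin9* measured 18.7, 16.6 and 17.5 CPM in control and 5.99, 6.87 and 7.37 CPM with heme. The repressors *E2f7* (-1.03) and *E2f8* (-0.97) and the pocket protein genes *Rbl1* (-0.74) and *Rbl2* (-0.69) were lower. *E2f6* (0.57) and *E2f4* (0.35), which encode E2F proteins that mostly repress, were higher, the rise of *E2f4* being lost with scaling by totals alone (adjusted p = 0.131).

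S phase genes, which make DNA and its precursors, were lower in part. Of 37, 22 (59.5%, against 30.8% of all tested genes) were lower, 1 was higher (against 31.7%) and 14 were not called. The median log2 fold change was -0.63. For most of these genes control replicate 1 was the highest control library. For some of them the other control libraries differed little from the heme libraries. Without control replicate 1, 19 of the list were lower, and without control replicate 2, 27 were. The difference between this list and the members was not tested. *Tk1*, the thymidine kinase of cycling cells, had the largest fall, from 49.4, 25.8 and 31.0 CPM to 9.43, 13.7 and 9.83 CPM (log2 fold change -1.69, SE 0.24, edgeR adjusted p = 0.000193), followed by *Pole* (-1.40) and *Mcm10* (-1.24), of the replication machinery. *Rrm1* (-1.21), *Pola1* (-1.21) and *Tyms* (-1.10) also fell. *Pcna*, the sliding clamp of DNA polymerases and a DNA repair factor, was the gene that rose, from 303, 163 and 195 CPM in control to 360, 386 and 382 CPM with heme (log2 fold change 0.77, SE 0.19, adjusted p = 0.00546).

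Among 13 genes of cell cycle entry and arrest, 5 (38.5%) fell, 4 rose and 4 were not called. Over all tested genes, 30.8% were lower and 31.7% higher, so the split of this list was near that of all genes. The inhibitor of CDK4 and CDK6 encoded by *Cdkn2b* (p15) rose from 2.71, 1.28 and 1.59 CPM to 19.8, 18.0 and 18.5 CPM (log2 fold change 3.32, SE 0.21, edgeR adjusted p = 1.02e-06). *Cdkn1c* (p57), which blocks several cyclin-CDK pairs, rose from 6.88, 8.12 and 8.93 CPM to 60.8, 43.2 and 56.8 CPM (log2 fold change 2.75, SE 0.14, adjusted p = 2.82e-07). The other inhibitors did not all follow. *Cdkn2c* (p18) fell from 66.7, 51.8 and 59.9 CPM to 11.3, 14.2 and 10.8 CPM (log2 fold change -2.30, SE 0.13), and *Cdkn1b* (p27) and *Cdkn2d* (p19) fell by 1.28 and 1.11 on the log2 scale, while *Cdkn2a* (0.83) rose.

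*Cdkn1a* (p21), a target of p53, measured 226, 160 and 151 CPM in control and 185, 206 and 197 CPM with heme and was not called (log2 fold change 0.13, SE 0.14, edgeR adjusted p = 0.425), although without control replicate 1 it passed (0.33, adjusted p = 0.00164), and with scaling by totals alone it was at -0.0935. *Ccnd1*, 1 of 3 cyclin D genes, which answer to growth factors, measured 393, 95.8 and 162 CPM in control and 138, 189 and 151 CPM with heme. Control replicate 1 again stood above the rest, and the log2 fold change of -0.45 (SE 0.41, adjusted p = 0.36) turned to 0.29 (adjusted p = 0.206) without it and passed the test at -0.81 (adjusted p = 0.0317) without control replicate 2. *Ccnd2* was not called (0.35, adjusted p = 0.415) and passed without control replicate 1 (0.84, adjusted p = 0.0223). *Ccnd3* rose (0.57). *Cdk2* (-0.60) and *Cdk4* (-0.25) fell, and *Cdk6* was not called (-0.05, adjusted p = 0.794).

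**Figure D4:**
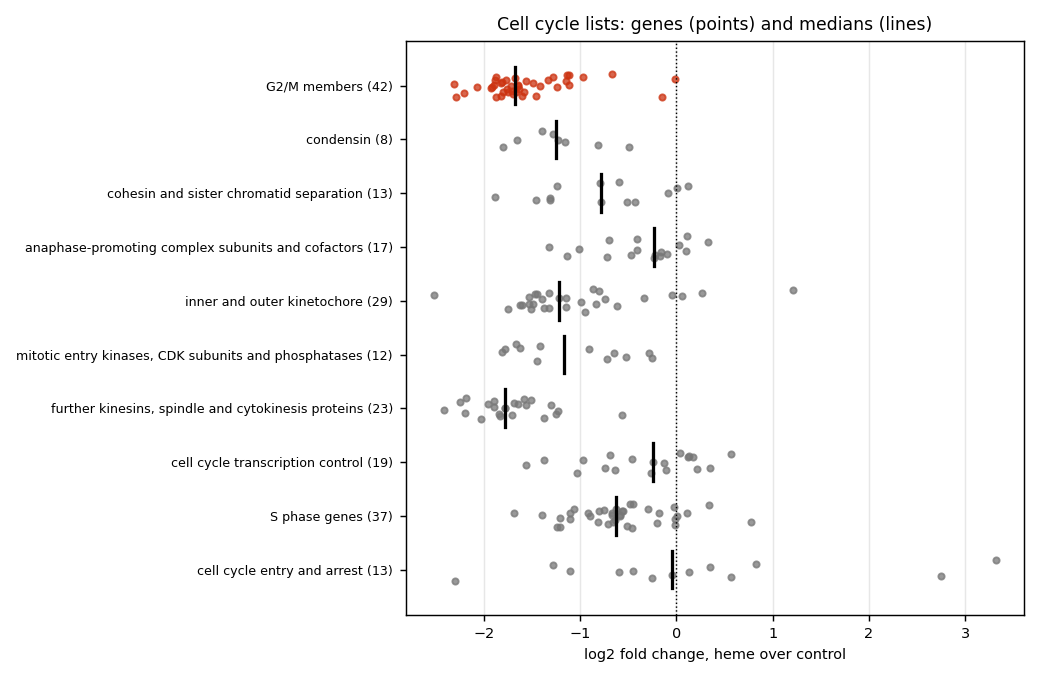
Log2 fold change, heme over control, of each gene in the members' list (red), in the 6 roles of the other mitosis genes and in the 3 remaining cell cycle lists (gray), with 1 point per gene, the median as a line and the number of genes in brackets. The members (median -1.68) and the further kinesin, spindle and cytokinesis genes (median -1.78) lie lowest, and the S phase (median -0.63), transcription control (median -0.24) and entry and arrest genes (median -0.05) lie nearer to 0.

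The cells had the transcripts of macrophages in both groups, and markers of other cells differed between them. Marker counts here and below stand beside shares of 30.8% lower and 31.7% higher over all tested genes. Of 9 macrophage markers, 7 were lower and 1 higher with heme, and their summed level was 32000 to 37820 CPM in control and 36340 to 39610 CPM with heme, most of it *Lyz2*. *Adgre1* (F4/80) measured 1020, 1094 and 967 CPM in control and 645, 731 and 657 CPM with heme. *Csf1r*, the M-CSF receptor, measured 1785, 2550 and 2432 CPM in control and 1491, 1560 and 1388 CPM with heme.

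Markers of marrow progenitors rose in the libraries in which the mitosis genes were low. Of 9 progenitor markers, 8 were tested and 7 of those rose, with a sum of 2.03 to 2.13 CPM in control and 28.4 to 55.02 CPM with heme. *Mpo*, a granule enzyme of myeloid precursors, made up much of the sum with heme, at 13.7, 24.2 and 29.2 CPM. *Elane*, another such enzyme, stood at 2.73, 3.71 and 5.17 CPM with heme, and *Kit* did not pass the test. Of 10 neutrophil markers, 7 were tested, 5 rose and 1 fell (sums of 61.5 to 120 CPM in control and 109 to 134 CPM with heme). Most of the control sum was *Csf3r*, at 50.8, 106 and 68.9 CPM in control and 32.9, 41.8 and 31.9 CPM with heme, whereas *S100a8* measured 1.74, 2.39 and 1.93 CPM in control and 33.9, 29.98 and 38.99 CPM with heme. Of 5 monocyte markers, 3 rose and 1 fell (sums of 82.5 to 164 CPM and 197 to 260 CPM).

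Most markers of other lineages were low. Of 6 B cell markers, 2 were tested and both fell, with sums of 228 to 263 CPM in control and 41.6 to 56.6 CPM with heme that were almost wholly *Ighm*, while *Cd79a* had at most 3 counts in a library and 1 marker had none. Of 6 mast cell and basophil markers, 3 were tested and all 3 rose (sums of 0.179 to 0.249 CPM and 3.37 to 5.98 CPM). Of 5 endothelial markers, 4 were tested, 1 fell and 1 rose (68.4 to 90.6 CPM and 79.5 to 92.3 CPM, almost wholly *Vwf*). The 1 erythroid and the 1 stromal marker that were tested rose, 1 of 2 tested T and NK cell markers fell, and no dendritic cell marker was tested. T and NK cell markers (7, with 3 at 0 in all libraries) summed to at most 7.37 CPM in any library, and in control most of the sum was *Cd4*. Erythroid markers (8, with 3 at 0) summed to at most 1.55 CPM. The sums were at most 1.40 CPM for dendritic cell markers (6) and at most 1.34 CPM for stromal markers (6, with 2 at 0). The part of these cells in the fall of the mitosis genes was not tested.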

How the data were processed

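RNA of mouse BMDMs from 3 control (albumin) and 3 heme (heme-albumin) cultures was sequenced in bulk. The authors deposited raw counts, as whole numbers of reads for each Ensembl gene in each library. Per the submitters' processing notes, STAR 2.7.0, featureCounts and GRCm38.p5 were used. No source used here gives the annotation release or the strand setting. Symbols and positions came from GENCODE M21 and promoter windows from RefSeq, both on GRCm38.p6.

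In R 4.3.3, edgeR 4.0.16 was used to filter genes (filterByExpr, minimum count 10), scale libraries by TMM (factors of 1.07 to 1.10 in control and 0.918 to 0.931 in heme libraries) and run the quasi-likelihood test (glmQLFit, glmQLFTest) on the effect of heme, without covariates. A gene was called where its p, adjusted over all tested genes by Benjamini-Hochberg, was under 0.05. Standard errors were derived from the same test, as the absolute log2 fold change divided by the square root of its F statistic. The procedure was tested on simulated data. p-values measure the spread between these cultures.

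The members and the other gene lists were chosen with earlier results of these data known. The text names all members, in each other list at most 6 called genes by size of change and at most 3 that moved the opposite way, all genes of cell cycle entry and arrest, and cell type markers whose level bears on a result. Alternatives were other scaling (library sizes alone, median-of-ratios size factors, upper quartile), DESeq2 1.42.0, limma-voom (limma 3.58.1), other filters, a test against an absolute log2 fold change of 0.5 (glmTreat), the replicate number as a block, and each library left out in turn.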

Additional observations from a re-analysis of the deposited data

How the results depend on the processing

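Under every alternative run, 39 to 42 members were lower and 0 higher, and the medians stayed between -1.59 and -1.90. Scaling by library sizes alone moved the median of all tested genes to -0.22 and the calls over all genes from 3831 lower and 3938 higher to 5814 lower and 2580 higher. All 42 members were then lower, with *Mybl2* at -0.90 (adjusted p = 0.0427), *Bub3* at -0.24 (0.0167) and *Pttg1* at -0.37 (0.00217), edgeR's quasi-likelihood test with Benjamini-Hochberg adjustment. The test against an absolute change of 0.5 called 3333 genes in all, 9 S phase genes lower and 5 genes of entry and arrest, and still 39 members lower. *Pcna* no longer passed it (adjusted p = 0.101). Leaving out 1 library gave 6710 to 8039 calls over all genes, 39 to 40 members lower, 84 to 87 of the other mitosis genes, 16 to 27 S phase genes, 9 to 10 transcription control genes and 9 to 11 genes of entry and arrest, and the members' share of counts with heme stayed at 28.1% to 32.1% of control. Signs turned for genes that were not called. With 1 library left out, the log2 fold change of *Bub3* ranged from -0.0566 to 0.0385 (above 0 without control replicate 1 or heme replicate 2), that of *Ccnd1* from -0.81 to 0.29, that of *Ccnd2* from -0.0176 (without control replicate 2) to 0.84, and that of *Cdk6* from -0.24 to 0.0853 (above 0 with control replicate 1, heme replicate 1 or heme replicate 3 left out). *Cdkn1a* was at -0.0935 with library sizes alone. The cause was not tested.

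The sources do not say whether a replicate number pairs the samples, and the correlations of the deviations of same-numbered libraries were -0.0998, -0.142 and -0.0683, so the number was not treated as a pairing. With the replicate number as a block, 7164 genes were called, and 39 members were lower and 0 higher. Bulk counts do not give the share of dividing cells.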

Other observations

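In the control group, *Mpo* was counted 0, 0 and 1 times and *Elane* 0 times in each library. With heme, *Mpo* was counted 406, 612 and 795 times and *Elane* 81, 94 and 141 times. A count of 0 in a control library allows a level below that of 3 counts, which lies between 0.0829 and 0.0917 CPM in the 3 control libraries and covers counting error only.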
